A study of Mus musculus with 12 samples.

Results

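Interleukins are the secreted signaling proteins through which leukocytes and tissue cells address each other, and each acts on cells that carry its receptor chains. The 83 gene symbols that begin with Il and a digit in the expression tables of mouse kidney cortex were read as the interleukin and interleukin receptor genes, and the 47 with at least 0.3 FPKM (fragments per kilobase, corrected for sequencing depth) in at least 3 of the 12 libraries are described here. The same threshold kept 14992 of all 23183 symbols. The name holds ligands, antagonists and receptor chains, and also genes that are no interleukin, such as Il4i1, an amino acid oxidase. The lowest genes inside the threshold by their third-highest library were Il12rb2 at 0.369 FPKM, Il12rb1 at 0.456 FPKM and Il17f at 0.521 FPKM, and the highest outside were Il17c at 0.26 FPKM, Il23a at 0.255 FPKM and Il1f5 at 0.229 FPKM.

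The IL-1 family is made as precursors or released from dying cells and signals through paired receptor chains and the adaptor MyD88 to NF-kB, with a secreted antagonist, Il1rn, and a decoy receptor, Il1r2, as brakes. The IL-6 group shares the signaling chain gp130 (Il6st), the IL-2 group shares the common gamma chain (Il2rg), and both act through JAK kinases and STAT factors, which induce the SOCS inhibitors. In kidneys with ureteral obstruction, tubular cells, fibroblasts and infiltrating macrophages and lymphocytes are known sources and targets of these signals.

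The mice were male C57BL/6N at 6 to 7 weeks of age, given as C57BL/6 in the sample labels, and were either WT or Acot12-/-, a global germline mutant made with an RNA-guided nuclease that lacks acyl-CoA thioesterase 12, an enzyme of acyl-CoA metabolism. Unilateral ureteral obstruction (UUO) closes the ureter of one kidney, and cortex was taken on day 7 from the obstructed (UUO) and from the contralateral (CL) kidney. The 4 groups, WT CL, WT UUO, Acot12-/- CL and Acot12-/- UUO, held 3 libraries each, and every CL kidney came from an operated mouse, without a sham operation among the samples. Cortex is a mixture of cells, so that fewer cells of a type and less RNA per cell cannot be told apart.

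Acot12 itself was listed at 52.7 to 78.1 FPKM in WT CL and 6.80 to 9.15 FPKM in Acot12-/- CL libraries, and at 9.98 to 21.2 FPKM in WT UUO and 1.80 to 3.86 FPKM in Acot12-/- UUO libraries, so that the genotypes did not overlap in either kidney. The value of a single fragment placed the depth at 12400000 to 16300000 fragments in the CL and 18400000 to 22900000 in the UUO libraries, and 1 fragment on a transcript of 1 kb was worth 0.0437 to 0.0807 FPKM. The Acot12-/- CL libraries correlated less among themselves (Pearson r across genes 0.952 to 0.986) than those of the other groups (0.979 to 0.993), and replicate 2 of that group stood apart for several genes named below. Cortex markers fell with UUO in both genotypes, 8 and 9 of 9 tested proximal tubule markers in WT and Acot12-/-, while 13 and 14 of 14 macrophage and dendritic cell markers and 8 and 9 of 10 T cell and NK cell markers rose. The summed level of the macrophage list went from 163 to 176 FPKM in WT CL to 718 to 852 FPKM in WT UUO, and from 42.0 to 111 FPKM in Acot12-/- CL to 761 to 993 FPKM in Acot12-/- UUO libraries, with no marker of it at 0 in any group. These marker levels moved with most of the receptor genes described here, and their part in those differences was not tested.

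Before the values, the bases that precede the start site are shown for 5 genes on which the results turn: Il1rn and Il1r2, the brakes of IL-1 that rose with UUO, Il6, whose mRNA was listed at 0 in 1 group, Il33, which differed between the genotypes, and Il17f, the low gene that fell. Each line holds the 250 bases upstream of the outermost start listed by RefSeq for GRCm38.p6, 5′ to 3′ on the strand of the gene, with motif matches in capitals. RefSeq listed 3 starts for Il1rn and 2 for Il33, and the other starts are not shown. The windows of Il1r2 and Il17f lie inside the annotated spans of these genes, chr1:40074079-40125231 and chr1:20777146-20790617.
Il1rn, chr2:24336610-24336859, plus strand: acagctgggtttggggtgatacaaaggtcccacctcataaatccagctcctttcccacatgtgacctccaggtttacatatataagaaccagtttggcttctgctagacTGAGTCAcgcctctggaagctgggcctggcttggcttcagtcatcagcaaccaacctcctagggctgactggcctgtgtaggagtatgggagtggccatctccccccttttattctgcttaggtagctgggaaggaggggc
Il1r2, chr1:40085843-40086092, plus strand: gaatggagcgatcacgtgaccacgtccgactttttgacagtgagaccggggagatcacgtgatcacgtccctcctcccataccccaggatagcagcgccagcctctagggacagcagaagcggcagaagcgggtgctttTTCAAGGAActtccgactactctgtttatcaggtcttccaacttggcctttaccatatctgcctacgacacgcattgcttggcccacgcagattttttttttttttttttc
Il6, chr5:30012864-30013113, plus strand: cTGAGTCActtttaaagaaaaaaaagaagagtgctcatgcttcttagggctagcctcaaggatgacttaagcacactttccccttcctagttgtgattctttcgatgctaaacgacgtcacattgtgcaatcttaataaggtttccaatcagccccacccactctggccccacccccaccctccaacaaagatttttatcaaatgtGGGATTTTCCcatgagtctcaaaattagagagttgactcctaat
Il33, chr19:29924863-29925112, plus strand: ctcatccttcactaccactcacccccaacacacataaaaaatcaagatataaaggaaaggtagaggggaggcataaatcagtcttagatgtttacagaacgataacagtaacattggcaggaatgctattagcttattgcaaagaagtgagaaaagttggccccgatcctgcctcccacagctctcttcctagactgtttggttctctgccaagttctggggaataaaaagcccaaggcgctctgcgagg
Il17f, chr1:20784271-20784520, minus strand: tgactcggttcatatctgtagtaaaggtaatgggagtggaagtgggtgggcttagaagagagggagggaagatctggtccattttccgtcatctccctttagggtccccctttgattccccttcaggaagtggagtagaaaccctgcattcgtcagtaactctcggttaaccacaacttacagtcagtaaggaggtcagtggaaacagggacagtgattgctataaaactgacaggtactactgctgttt
The capitals mark the AP-1 motif TGANTCA in Il1rn, 141 to 135 bases before the start, and in Il6, 249 to 243 bases before it. They mark the STAT motif TTCNNNGAA in Il1r2, 111 to 103 bases before the start, and the NF-kB motif in Il6, 44 to 35 bases before it, and no window of Il33 or Il17f held any of the 3. Both strands were searched, and no 2 of these matches overlapped. Of 27025 genes with a listed promoter, 6.85% held the AP-1 motif, 7.14% the STAT motif and 7.03% the NF-kB motif in the same window. Promoters were listed for 37 of the 47 genes, of which 6 held the AP-1, 4 the STAT and 2 the NF-kB motif, and the 10 others, Il1f6 and Il34 among them, are named only. A match is a run of letters, not a measured binding site.

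With UUO, 29 of the 47 genes rose and 3 fell in WT kidneys, against a background of 23.7% of all 14963 tested genes called higher and 21.7% called lower. In Acot12-/- kidneys 33 rose and 3 fell, against 27.7% and 24.6% of all tested genes. Called means an adjusted p under 0.05 from limma on log2(FPKM + 1), and all differences below are on this scale, with their standard error and 3 libraries a group. The median difference of the 47 genes was 0.72 in WT and 0.89 in Acot12-/- kidneys, beside 0.033 and 0.041 over all tested genes. No CL library reached 0.3 FPKM for Il1f6, Il1rn, Il1rl1, Il1rl2, Il12rb1, Il7r and Il6, and no UUO library did for Il17f. Il11, Il1r2 and Il18rap reached it in too few CL libraries to pass without UUO. The direction of these genes was thus in part set by the filter, which enters these counts and medians. In both genotypes 28 genes rose and 2, Il15 and Il17f, fell, Il10rb and Il11ra1 were called in WT alone, Il15ra, Il17d, Il17re, Il1b, Il1f9 and Il6 in Acot12-/- alone, and none was called in opposite directions. Genes called in one genotype alone are not thereby shown to differ between genotypes, a question that the interaction below takes up. Scaling every library to the same total FPKM moved the median of all tested genes to 0.557 in WT and to 0.422 in Acot12-/- kidneys. Then 38 of the 47 genes were called higher in each genotype and 1, Il17f, lower. Under that scaling, 8359 of 15117 tested genes were called higher in WT and 7034 in Acot12-/-, and 1097 and 1589 were called lower.

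**Figure D1:**
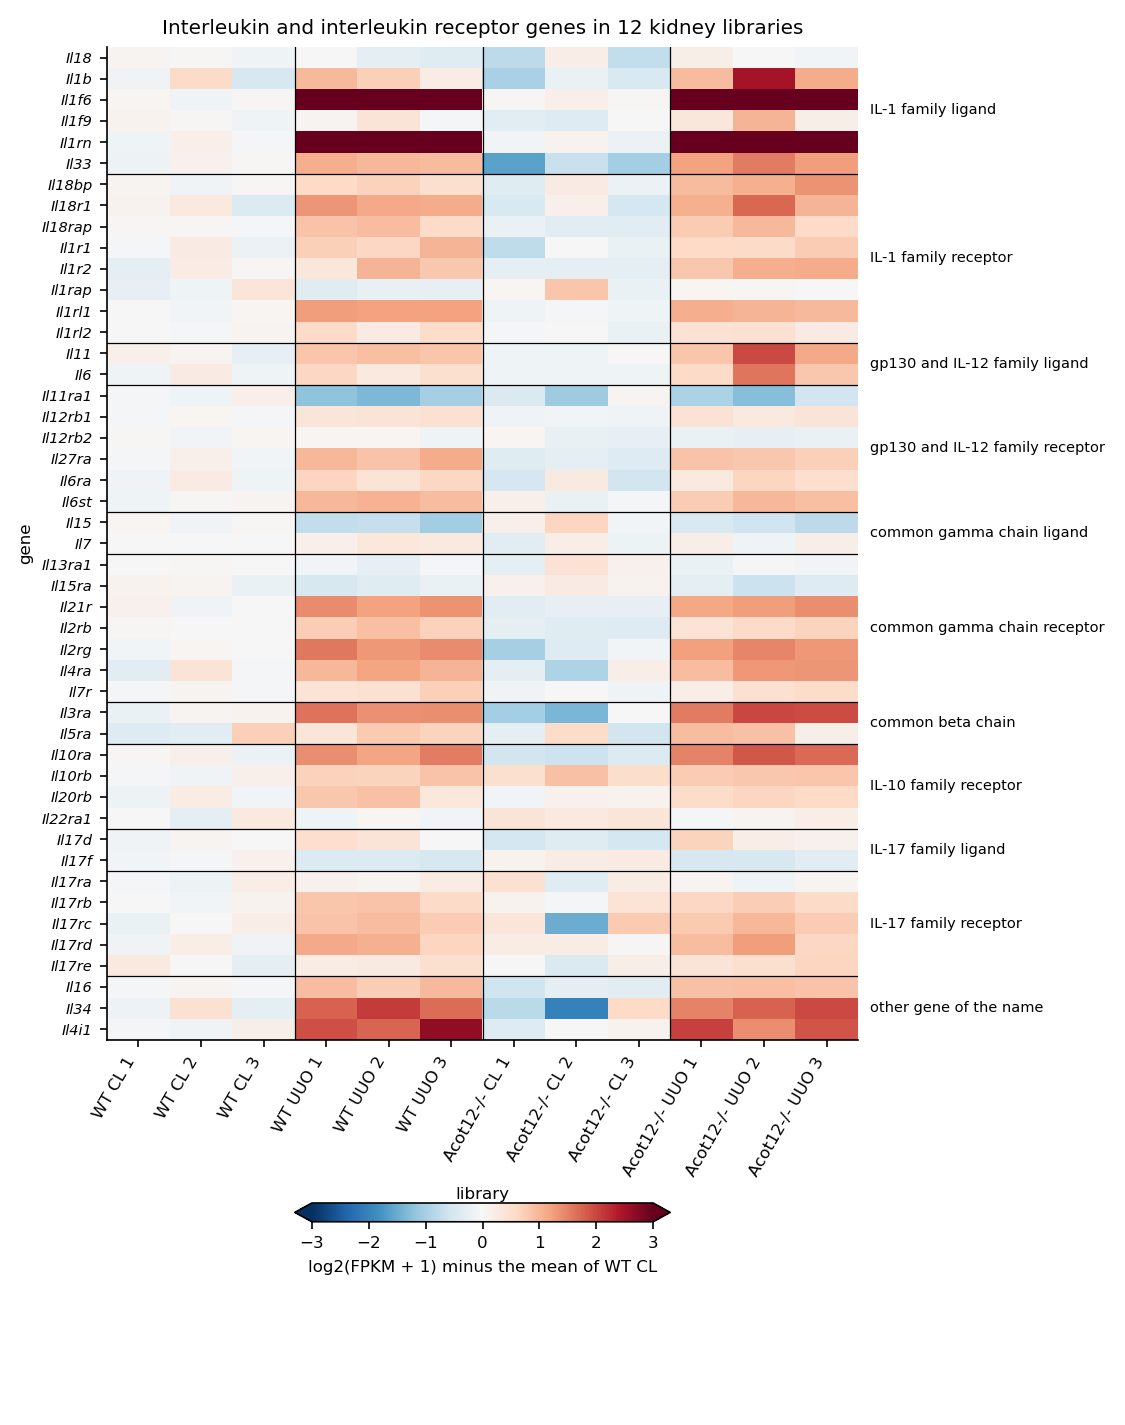
Each column is a library and each row a gene, grouped by family and role, and the color is log2(FPKM + 1) minus the mean of the 3 WT CL libraries, with the scale ending at 3 in either direction. The UUO columns are red for most receptor rows in both genotypes, Il1f6 and Il1rn lie beyond the end of the scale there, and Il11ra1 and Il15 are blue in them.

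**Figure D2:**
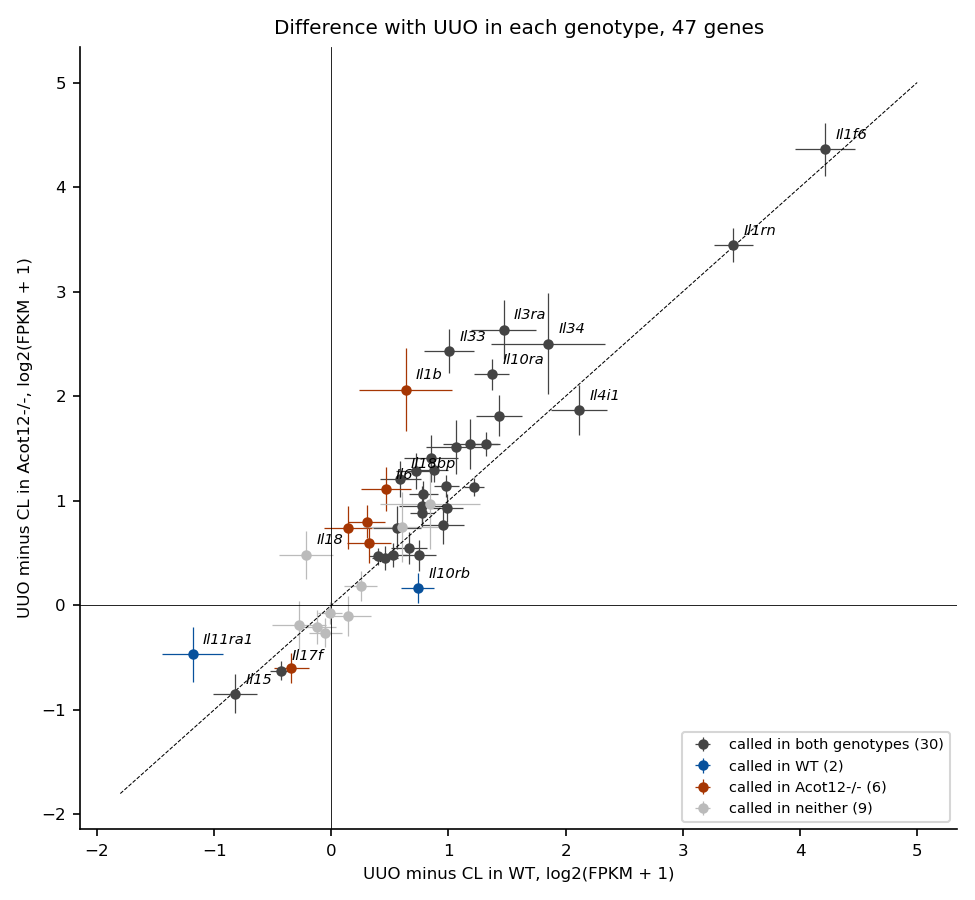
Each point is 1 of the 47 genes with its UUO minus CL difference in log2(FPKM + 1) in WT on the horizontal and in Acot12-/- on the vertical axis, bars are standard errors, colors give the calls and the dashed line marks equal differences. Most points lie at positive values on both axes, with Il1f6 at 4.21 and 4.36 and Il1rn at 3.43 and 3.44 close to the line, while Il33 at 1.01 and 2.43 and Il1b at 0.63 and 2.06 lie above it.

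Among the 6 ligand and antagonist genes of the IL-1 family, 3 rose in WT and 5 in Acot12-/- kidneys, and the 2 largest differences of all 47 genes were there. Those 2 genes, Il1f6 and Il1rn, passed the threshold through their UUO libraries alone. Il1f6 encodes IL-36 alpha, an epithelial cytokine, and lies at chr2:24215418-24225702. Il1f6 was listed at 0.114, 0 and 0.107 FPKM in WT CL and 19.9, 12.4 and 27.3 FPKM in WT UUO libraries, and at 0.102, 0.199 and 0.095 FPKM in Acot12-/- CL and 16.5, 30.1 and 22 FPKM in Acot12-/- UUO libraries. Every UUO library lay far above every CL library, whose values stand for 0 to 2 fragments, and the difference was 4.21 ± 0.25 in WT and 4.36 ± 0.25 in Acot12-/- (adjusted p 1.06e-06 and 3.81e-07).

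Il1rn encodes the IL-1 receptor antagonist, which occupies Il1r1 without signaling, and lies at chr2:24336853-24351494. Il1rn was listed at 0.034, 0.253 and 0.099 FPKM in WT CL and 9.19, 10.7 and 14.1 FPKM in WT UUO libraries, and at 0.061, 0.216 and 0 FPKM in Acot12-/- CL and 10.3, 12.7 and 9.8 FPKM in Acot12-/- UUO libraries. The UUO groups of both genotypes overlapped and stood clear of the CL groups, with differences of 3.43 ± 0.16 in WT and 3.44 ± 0.16 in Acot12-/- (adjusted p 2.56e-07 and 2.04e-07). The AP-1 match in the sequence above belongs to this gene. Il1f9, which encodes IL-36 gamma and begins the same block of IL-1 ligand genes, chr2:24186476-24351494, showed no comparable level. Il1f9 was listed at 0.474, 0.401 and 0.251 FPKM in WT CL and 0.463, 0.802 and 0.314 FPKM in WT UUO libraries, and at 0.094, 0.048 and 0.392 FPKM in Acot12-/- CL and 0.731, 1.8 and 0.542 FPKM in Acot12-/- UUO libraries. It rose in Acot12-/- (0.74 ± 0.21, adjusted p 0.00937) and was not called in WT (0.14 ± 0.21, adjusted p 0.6).

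Il1b, the cytokine that Il1rn antagonizes, was less uniform than its antagonist. Il1b was listed at 1.36, 2.82 and 0.839 FPKM in WT CL and 4, 3.16 and 1.98 FPKM in WT UUO libraries, and at 0.305, 1.23 and 0.845 FPKM in Acot12-/- CL and 3.93, 13.5 and 4.5 FPKM in Acot12-/- UUO libraries. WT CL and WT UUO overlapped (0.63 ± 0.39, adjusted p 0.207), whereas all 3 Acot12-/- UUO libraries lay above all 3 Acot12-/- CL libraries (2.06 ± 0.39, adjusted p 0.000934). Replicate 2 of Acot12-/- UUO was the highest, and without it the difference was 1.57 (adjusted p 0.00238). The interaction for Il1b was 1.43 ± 0.56 (adjusted p 0.374), so the 2 genotypes were not shown to differ in this response. With equal totals Il1b was called in WT as well (1.16, adjusted p 0.0211). Reads of Il1b and of its antisense transcript Il1bos cover the same region, and the strand setting of the counting is not given in the sources used here. In FPKM, the level of Il1rn was 2.30, 3.38 and 7.09 times that of Il1b in the WT UUO libraries, 2.61, 0.941 and 2.18 times in Acot12-/- UUO, and 0 to 0.2 times in the CL libraries, so that the order of the 2 genes turned with UUO in all UUO libraries but Acot12-/- UUO replicate 2, where both stood near the same level. That library also had the highest summed neutrophil markers, 169 FPKM beside 45.7 and 57.4 FPKM in the other 2 of its group and 22.9 to 74.1 FPKM in WT UUO. In CL kidneys the sums were 16.0 to 67.9 FPKM in WT, the highest in replicate 2, and 2.39 to 24.8 FPKM in Acot12-/-. The neutrophil list had 7 genes in the files, with Camp and Ngp at 0 in the WT CL, WT UUO and Acot12-/- CL groups. Of its 4 tested genes, 0 were called with UUO in WT and 4 rose in Acot12-/- kidneys. Its part in the level of Il1b was not tested.

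Il33, a nuclear alarmin of stromal, endothelial and epithelial cells, lies at chr19:29925114-29960718. Il33 was listed at 4.83, 6.11 and 5.72 FPKM in WT CL and 12.9, 12 and 11.5 FPKM in WT UUO libraries, and at 1.13, 3.13 and 2.24 FPKM in Acot12-/- CL and 14, 18.1 and 14.5 FPKM in Acot12-/- UUO libraries. It rose in both genotypes, by 1.01 ± 0.21 in WT and 2.43 ± 0.21 in Acot12-/- (adjusted p 0.00228 and 4.19e-06), with no overlap between kidneys. The 4 groups kept a strict order, Acot12-/- CL lowest, then WT CL, WT UUO and Acot12-/- UUO, and of the neighbours in this order only the last pair was not called different. Il18, an IL-1 family cytokine that tubular cells make constitutively, was not called in either genotype. Il18 was listed at 5.4, 5.28 and 4.6 FPKM in WT CL and 5.06, 4 and 3.73 FPKM in WT UUO libraries, and at 2.52, 6.03 and 2.64 FPKM in Acot12-/- CL and 5.92, 5.16 and 4.79 FPKM in Acot12-/- UUO libraries. The WT difference was -0.22 ± 0.23 and the Acot12-/- difference 0.48 ± 0.23 (adjusted p 0.469 and 0.0967). Replicate 2 of Acot12-/- CL was more than 2 times the others of its group, and without it Il18 was called higher with UUO in Acot12-/- kidneys (0.81, adjusted p 0.000429), as it was with equal totals (0.92, adjusted p 0.00751).

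**Figure D3:**
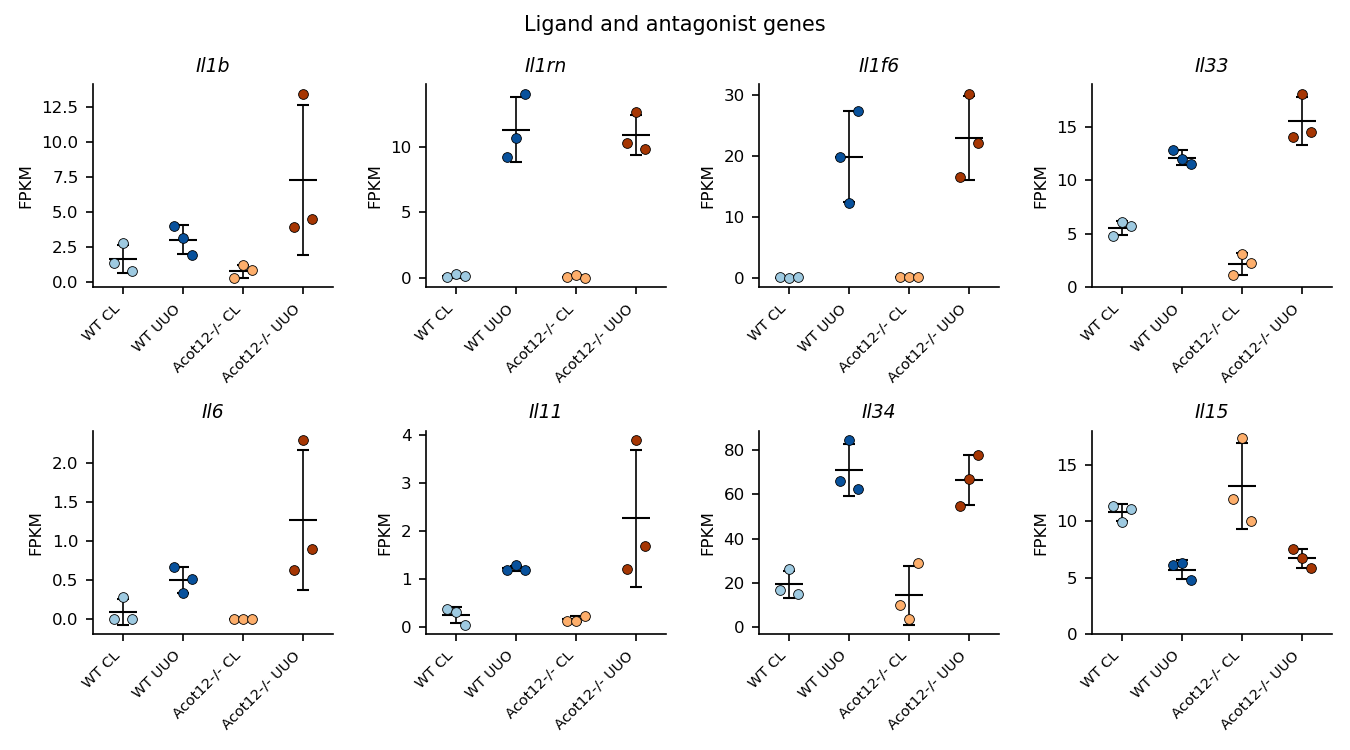
Points are the FPKM of single libraries in the 4 groups for 8 ligand and antagonist genes, and lines and bars give the mean and SD of 3 libraries. Il1rn and Il1f6 are near 0 in every CL library and at 9.19 to 14.1 and 12.4 to 30.1 FPKM with UUO, Acot12-/- UUO replicate 2 is the highest library for Il1b, Il6 and Il11, and Il15 is lower with UUO.

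Of the 8 receptor and binding protein genes of the IL-1 family, 7 rose in both genotypes and Il1rap, the shared accessory chain, was called in neither. Their 6 genes on chromosome 1, Il1r2, Il1r1, Il1rl2, Il1rl1, Il18r1 and Il18rap, follow each other within 478 kb at chr1:40074079-40551705, where the annotation lists no other protein-coding gene, and all 6 rose in both genotypes. They are neighbours and share many cell sources, so they are not independent observations.

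Il18r1, the ligand-binding chain for IL-18, showed the largest difference of the block in Acot12-/- kidneys on the log2(FPKM + 1) scale. This order depended on the pseudocount. With 0.1 in its place, Il18r1 was at 3.08 there, below Il1rl1 at 3.49, Il1r2 at 3.40 and Il18rap at 3.19. Il18r1 was listed at 0.681, 0.929 and 0.183 FPKM in WT CL and 2.9, 2.44 and 2.38 FPKM in WT UUO libraries, and at 0.136, 0.737 and 0.094 FPKM in Acot12-/- CL and 2.28, 4.13 and 2.18 FPKM in Acot12-/- UUO libraries. Groups of the 2 kidneys did not overlap in either genotype (1.19 ± 0.24 in WT and 1.54 ± 0.24 in Acot12-/-, adjusted p 0.00164 and 0.000197). Il18rap, its signaling partner, was lower than Il18r1 in every library except WT CL replicate 3. Il18rap was listed at 0.32, 0.312 and 0.232 FPKM in WT CL and 1.32, 1.45 and 0.915 FPKM in WT UUO libraries, and at 0.115, 0.015 and 0.013 FPKM in Acot12-/- CL and 1.18, 1.51 and 0.921 FPKM in Acot12-/- UUO libraries. It rose by 0.78 ± 0.12 and 1.07 ± 0.12 (adjusted p 0.000357 and 2.83e-05). Il1rl1, also called ST2, is the receptor of IL-33 and has a soluble form that these gene-level values do not separate. Il1rl1 was listed at 0.103, 0.046 and 0.153 FPKM in WT CL and 1.61, 1.54 and 1.54 FPKM in WT UUO libraries, and at 0, 0.069 and 0 FPKM in Acot12-/- CL and 1.33, 1.25 and 1.15 FPKM in Acot12-/- UUO libraries. CL values were near 0, and the rise was 1.22 ± 0.09 in WT and 1.13 ± 0.09 in Acot12-/- (adjusted p 2.51e-06 and 1.83e-06).

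Il1r1, the signaling receptor of IL-1, was the highest of the 6 in the CL kidneys. Il1r1 was listed at 2.1, 2.83 and 1.84 FPKM in WT CL and 4.27, 3.96 and 5.5 FPKM in WT UUO libraries, and at 0.918, 2.27 and 1.82 FPKM in Acot12-/- CL and 3.87, 3.79 and 4.44 FPKM in Acot12-/- UUO libraries. It rose by 0.78 ± 0.20 and 0.95 ± 0.20 (adjusted p 0.00709 and 0.00167). Il1r2, the decoy with the STAT match shown above, was near 0 in Acot12-/- CL kidneys. Il1r2 was listed at 0.067, 0.511 and 0.318 FPKM in WT CL and 0.63, 1.62 and 1.24 FPKM in WT UUO libraries, and at 0.06, 0.061 and 0.055 FPKM in Acot12-/- CL and 1.25, 1.76 and 1.76 FPKM in Acot12-/- UUO libraries. It rose by 0.72 ± 0.17 and 1.28 ± 0.17 (adjusted p 0.00533 and 8.26e-05). Il1rl2, the receptor of the IL-36 cytokines, stayed under 1 FPKM in every library while its ligand gene Il1f6 reached 30.1 FPKM, and rose by 0.46 ± 0.11 and 0.45 ± 0.11. Il18bp encodes the secreted protein that neutralizes IL-18. Il18bp was listed at 4.01, 3.4 and 3.87 FPKM in WT CL and 6.21, 6.68 and 5.61 FPKM in WT UUO libraries, and at 2.68, 4.67 and 3.21 FPKM in Acot12-/- CL and 8.13, 8.9 and 11.1 FPKM in Acot12-/- UUO libraries. It rose by 0.59 ± 0.17 in WT and 1.21 ± 0.17 in Acot12-/- (adjusted p 0.0153 and 0.00012). Its difference between genotypes in UUO kidneys was not called (0.53 ± 0.17, adjusted p 1). The WT call was lost without WT CL replicate 2 or WT UUO replicate 2.

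The gp130 group held 2 ligand genes above the threshold. Il6, at chr5:30013114-30019981, is an acute-phase cytokine. Il6 was listed at 0, 0.285 and 0 FPKM in WT CL and 0.667, 0.334 and 0.516 FPKM in WT UUO libraries, and at 0, 0 and 0 FPKM in Acot12-/- CL and 0.625, 2.29 and 0.893 FPKM in Acot12-/- UUO libraries. All 3 Acot12-/- CL libraries and 2 of the WT CL libraries were listed at 0, so no fold is given, and Il6 was called higher with UUO in Acot12-/- (adjusted p 0.000934) and not in WT (adjusted p 0.094). The WT call was gained with a pseudocount of 0.1, with equal totals, in a fit of the compared groups alone and without Acot12-/- UUO replicate 2. Il11, which stromal cells make and which is studied in fibrosis, rose in both. Il11 was listed at 0.37, 0.301 and 0.044 FPKM in WT CL and 1.19, 1.28 and 1.19 FPKM in WT UUO libraries, and at 0.124, 0.127 and 0.229 FPKM in Acot12-/- CL and 1.2, 3.89 and 1.68 FPKM in Acot12-/- UUO libraries. Its difference was 0.85 ± 0.23 in WT and 1.40 ± 0.23 in Acot12-/- (adjusted p 0.00977 and 0.000306), and 1.07 (adjusted p 0.000151) without Acot12-/- UUO replicate 2, the highest library for both ligands.

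On the receptor side of this group 4 of 6 genes rose in both genotypes. Il6st, gp130 itself, was among the 5 most highly expressed genes of the 47. Il6st was listed at 17.5, 19.5 and 20.5 FPKM in WT CL and 39.3, 40.8 and 37 FPKM in WT UUO libraries, and at 21.4, 16.4 and 18.3 FPKM in Acot12-/- CL and 33.3, 39.4 and 36.8 FPKM in Acot12-/- UUO libraries. It rose by 0.99 ± 0.14 and 0.93 ± 0.14 (adjusted p 0.00015 and 0.000149), with tight groups in both kidneys. Il6ra, the ligand-binding chain of IL-6, was lower and closer to the threshold. Il6ra was listed at 0.767, 1.27 and 0.738 FPKM in WT CL and 2, 1.56 and 1.92 FPKM in WT UUO libraries, and at 0.343, 1.3 and 0.296 FPKM in Acot12-/- CL and 1.33, 1.98 and 1.7 FPKM in Acot12-/- UUO libraries. It rose by 0.56 ± 0.20 and 0.74 ± 0.20 (adjusted p 0.0413 and 0.00931), and the WT call was lost in 8 of 21 alternative fits. Il27ra, expressed by lymphocytes and other leukocytes, rose by 0.98 ± 0.11 and 1.14 ± 0.11 (adjusted p 3.71e-05 and 7.11e-06). Il27ra was listed at 0.4, 0.632 and 0.384 FPKM in WT CL and 1.91, 1.65 and 2.17 FPKM in WT UUO libraries, and at 0.138, 0.2 and 0.127 FPKM in Acot12-/- CL and 1.64, 1.58 and 1.43 FPKM in Acot12-/- UUO libraries. Il12rb1 rose by 0.40 ± 0.08 and 0.47 ± 0.08 without reaching 1 FPKM in any library, and Il12rb2 was called in neither genotype.

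Il11ra1, the receptor that binds IL-11, went the other way from its ligand. Il11ra1 was listed at 54, 51 and 62.3 FPKM in WT CL and 23.3, 21.3 and 27.5 FPKM in WT UUO libraries, and at 41.2, 25.9 and 59 FPKM in Acot12-/- CL and 28.2, 22.2 and 36.9 FPKM in Acot12-/- UUO libraries. It was the most abundant of the 47 genes in WT CL kidneys, fell in WT (-1.18 ± 0.26, adjusted p 0.00332) and was not called in Acot12-/- kidneys (-0.47 ± 0.26, adjusted p 0.155), where replicate 2 of CL was at the level of the UUO libraries. Without that library Il11ra1 was called lower in Acot12-/- kidneys too (-0.77, adjusted p 0.00941). With equal totals the WT difference was -0.47 (adjusted p 0.104) and the Acot12-/- difference 0.062, and neither was called. The annotated span chr4:41699989-41769474 overlaps Galt on the same strand and 5 protein-coding genes on the other, and a near-identical copy, Il11ra2, was listed at 0 in every library, so its level is uncertain.

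The common gamma chain group, as counted here, comprised 2 ligand genes, Il7 and Il15, and 7 receptor genes, of which 5 rose in both genotypes. Il13ra1 was counted in it as a partner of Il4ra, not as a chain that joins Il2rg. Il2rg, the common gamma chain at chrX:101264378-101268255, completes the receptors of IL-2, IL-4, IL-7, IL-15 and IL-21 on lymphocytes. Il2rg was listed at 1.95, 2.21 and 2.14 FPKM in WT CL and 8.24, 6.64 and 7.21 FPKM in WT UUO libraries, and at 0.56, 1.38 and 1.94 FPKM in Acot12-/- CL and 6.26, 7.53 and 6.63 FPKM in Acot12-/- UUO libraries. It rose by 1.43 ± 0.20 and 1.81 ± 0.20 (adjusted p 0.000146 and 1.86e-05). Il21r, a receptor of B cells, T cells and macrophages, moved alike. Il21r was listed at 0.754, 0.476 and 0.573 FPKM in WT CL and 3.29, 2.66 and 3.05 FPKM in WT UUO libraries, and at 0.253, 0.35 and 0.336 FPKM in Acot12-/- CL and 2.56, 2.8 and 3.18 FPKM in Acot12-/- UUO libraries. It rose by 1.32 ± 0.12 and 1.55 ± 0.12 (adjusted p 1.01e-05 and 1.51e-06). Il4ra, the chain that binds IL-4 and IL-13 signals, had one deviating library, replicate 2 of Acot12-/- CL, the lowest of all. Il4ra was listed at 3.25, 5.93 and 4.15 FPKM in WT CL and 9.72, 11.1 and 9.77 FPKM in WT UUO libraries, and at 3.42, 1.82 and 5.1 FPKM in Acot12-/- CL and 9.2, 12.2 and 12.3 FPKM in Acot12-/- UUO libraries. It rose by 1.07 ± 0.26 and 1.52 ± 0.26 (adjusted p 0.00547 and 0.000412). Il2rb, the beta chain for IL-2 and IL-15 on NK cells and T cells, was low. Il2rb was listed at 0.424, 0.393 and 0.378 FPKM in WT CL and 1.34, 1.6 and 1.25 FPKM in WT UUO libraries, and at 0.163, 0.084 and 0.075 FPKM in Acot12-/- CL and 0.846, 1.07 and 1.23 FPKM in Acot12-/- UUO libraries. It rose by 0.78 ± 0.10 and 0.89 ± 0.10 (adjusted p 0.000106 and 2.65e-05). Il7r, under 1 FPKM in all libraries, rose by 0.53 ± 0.12 and 0.48 ± 0.12, and Il13ra1, between 24.0 and 39.5 FPKM in all libraries, was called in neither genotype, but was lower in Acot12-/- without replicate 1 of CL (-0.39, adjusted p 0.0456) and higher in WT with equal totals (0.59, adjusted p 0.019).

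Il15, the cytokine that sustains NK cells and memory T cells and that tubular epithelium expresses, fell. Il15 was listed at 11.3, 9.96 and 11.1 FPKM in WT CL and 6.09, 6.3 and 4.76 FPKM in WT UUO libraries, and at 12, 17.4 and 10.1 FPKM in Acot12-/- CL and 7.56, 6.73 and 5.87 FPKM in Acot12-/- UUO libraries. UUO libraries lay below CL libraries in both genotypes, with differences of -0.82 ± 0.19 in WT and -0.85 ± 0.19 in Acot12-/- (adjusted p 0.00385 and 0.00241). Its high-affinity chain Il15ra was called lower in Acot12-/- (-0.60 ± 0.15, adjusted p 0.00457) and not in WT (-0.34 ± 0.15, adjusted p 0.0777), with 3.56 to 7.48 FPKM over all libraries. The WT difference was called in a fit of the compared groups alone (adjusted p 0.0462), without WT CL replicate 3 (-0.44, adjusted p 0.0479) and without replicate 2 of Acot12-/- CL (adjusted p 0.043). These falls depended on the scaling: with equal totals Il15 was at -0.17 in WT and -0.35 in Acot12-/- and Il15ra at -0.14 in Acot12-/- (adjusted p 0.554, 0.225 and 0.495), and none was called. Il7, a lymphocyte survival factor, was between 0.357 and 1.16 FPKM and was called in neither genotype. It was called higher in both with equal totals (0.61 and 0.41, adjusted p 0.00238 and 0.0268), in WT in a fit of the compared groups alone (adjusted p 0.0442), and in Acot12-/- without replicate 2 of CL (0.34, adjusted p 0.0351).

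Il3ra, the alpha chain of the IL-3 receptor on myeloid cells and endothelium, had the largest difference among receptor genes in Acot12-/- kidneys on the log2(FPKM + 1) scale. With a pseudocount of 0.1 it was at 3.44 there, below Il1rl1 at 3.49. Il3ra was listed at 2.31, 3 and 3.04 FPKM in WT CL and 10.7, 8.81 and 8.97 FPKM in WT UUO libraries, and at 0.861, 0.465 and 2.76 FPKM in Acot12-/- CL and 10.04, 14.2 and 13.7 FPKM in Acot12-/- UUO libraries. It rose by 1.47 ± 0.28 in WT and 2.64 ± 0.28 in Acot12-/- (adjusted p 0.00127 and 1.61e-05), and by 2.35 in Acot12-/- without replicate 2 of CL, the lowest library. Il5ra was called in neither genotype. In WT it was called without WT CL replicate 3 (0.95, adjusted p 0.0315) and with equal totals (1.02, adjusted p 0.0157). In Acot12-/- kidneys it was called with the mouse as a block (0.75, adjusted p 0.0446), with equal totals (1.06, adjusted p 0.0149), and without WT CL replicate 3 (0.75), Acot12-/- CL replicate 2 (1.07) or Acot12-/- UUO replicate 3 (0.99, adjusted p 0.041, 0.0148 and 0.0401).

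Il10ra, the ligand-binding chain of the IL-10 receptor on leukocytes, rose in both genotypes. Il10ra was listed at 1.56, 1.76 and 1.21 FPKM in WT CL and 5.54, 4.66 and 6.26 FPKM in WT UUO libraries, and at 0.696, 0.62 and 0.885 FPKM in Acot12-/- CL and 5.99, 8.03 and 7.16 FPKM in Acot12-/- UUO libraries. The differences were 1.37 ± 0.15 and 2.21 ± 0.15 (adjusted p 3.45e-05 and 7.81e-07). Il10 itself, the anti-inflammatory ligand, was outside the threshold at 0 to 0.455 FPKM. It was listed at 0 in all WT CL libraries, at 0.204, 0 and 0.206 FPKM in WT UUO, at 0, 0 and 0.172 FPKM in the CL and at 0.167, 0.455 and 0.267 FPKM in the UUO libraries of Acot12-/- mice, and was not tested. Il10rb, the widely expressed chain shared by the receptors of IL-10, IL-22 and the lambda interferons, is named after its values were seen. Il10rb was listed at 24.8, 23.5 and 28.2 FPKM in WT CL and 41.5, 41.1 and 46.9 FPKM in WT UUO libraries, and at 36, 47.6 and 37.4 FPKM in Acot12-/- CL and 43.8, 45.2 and 45.8 FPKM in Acot12-/- UUO libraries. It rose in WT (0.74 ± 0.14, adjusted p 0.00133) and was not called in Acot12-/- (0.16 ± 0.14, adjusted p 0.36), where the CL kidneys were near the UUO level. It was called there without replicate 2 of Acot12-/- CL (0.28, adjusted p 0.0377) and with equal totals (0.70, adjusted p 0.00636). Its annotated span chr16:91406164-91425834 shares a strand with the overlapping gene Gm21970. Il20rb rose in both genotypes at 0.133 to 1.30 FPKM, and Il22ra1, the epithelial chain for IL-22, was called in neither.

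**Figure D4:**
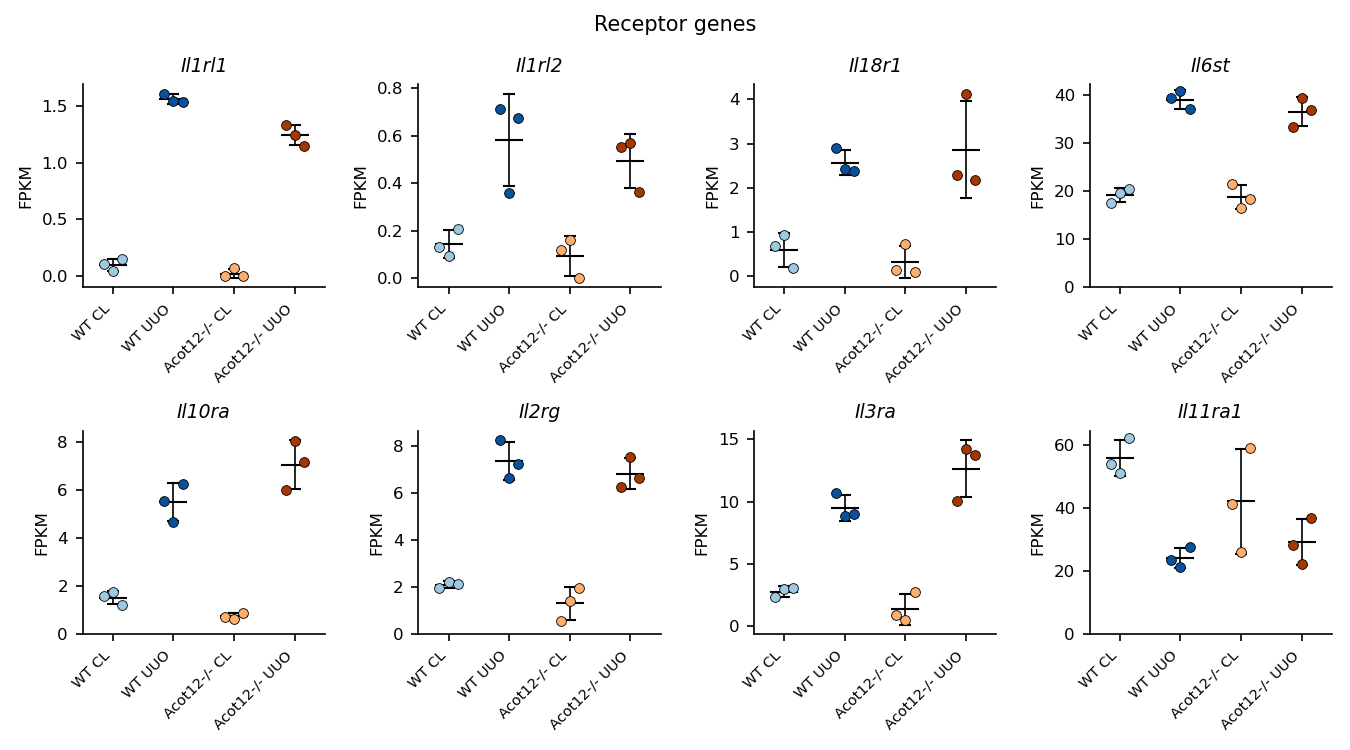
Points are the FPKM of single libraries in the 4 groups for 8 receptor genes, and lines and bars give the mean and SD of 3 libraries. UUO libraries lie above CL libraries of the same genotype for every gene shown except Il11ra1, which is at 51.0 to 62.3 FPKM in WT CL and 21.3 to 27.5 FPKM in WT UUO libraries.

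In the IL-17 family the chains differed from each other. Il17rd rose in both genotypes. Il17rd was listed at 0.925, 1.4 and 0.949 FPKM in WT CL and 3.57, 3.33 and 2.28 FPKM in WT UUO libraries, and at 1.41, 1.44 and 1.12 FPKM in Acot12-/- CL and 2.93, 3.98 and 2.17 FPKM in Acot12-/- UUO libraries. Its differences were 0.95 ± 0.18 and 0.77 ± 0.18 (adjusted p 0.00129 and 0.00369). Il17rb, the receptor of IL-25, rose as well. Il17rb was listed at 3.34, 3.09 and 3.67 FPKM in WT CL and 6.73, 6.84 and 5.46 FPKM in WT UUO libraries, and at 3.69, 3.27 and 4.81 FPKM in Acot12-/- CL and 5.73, 6.24 and 5.46 FPKM in Acot12-/- UUO libraries. Its differences were 0.75 ± 0.15 and 0.48 ± 0.15 (adjusted p 0.00149 and 0.0158), and the Acot12-/- call was lost in a fit of the compared groups alone (adjusted p 0.0816) and without Acot12-/- UUO replicate 2 (adjusted p 0.0594). Il17re was called in Acot12-/- alone (0.59 ± 0.19, adjusted p 0.0192), a call lost in a fit of the compared groups alone (adjusted p 0.0583) and without Acot12-/- UUO replicate 3 (adjusted p 0.0678), while with equal totals it was called in WT as well (0.94, adjusted p 0.000806). Il17ra, the chain shared by the family, was called in neither genotype at 5.27 to 10.1 FPKM, and in WT with equal totals (0.80, adjusted p 0.0055). Il17rc, which pairs with Il17ra for IL-17A and IL-17F, was at 5.87 to 8.03 FPKM in WT CL and 12.3 to 14.0 FPKM in WT UUO, yet was not called (0.84 ± 0.42, adjusted p 0.124), since the shared spread of the model included 1.81 FPKM in replicate 2 of Acot12-/- CL beside 9.22 and 12.5 FPKM. It was called in WT without that library, in a fit of the compared groups alone and with equal totals. In Acot12-/- kidneys it was called with equal totals and without replicate 3 of CL (1.41, adjusted p 0.0118).

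Il17d and Il17f, the ligand genes of that family above the threshold, were called in opposite directions in Acot12-/- kidneys. Il17d rose in Acot12-/- (0.80 ± 0.16, adjusted p 0.00136) and was not called in WT (0.30 ± 0.16, adjusted p 0.148). The WT difference was called without WT UUO replicate 3 (0.45, adjusted p 0.0423) and with equal totals (0.65, adjusted p 0.00946). Il17d was listed at 0.527, 0.738 and 0.64 FPKM in WT CL and 1.33, 1.15 and 0.626 FPKM in WT UUO libraries, and at 0.135, 0.27 and 0.125 FPKM in Acot12-/- CL and 1.58, 0.877 and 0.772 FPKM in Acot12-/- UUO libraries. Il17f, a cytokine of T helper and innate lymphoid cells, is named after its values were seen. Il17f was listed at 0.315, 0.344 and 0.521 FPKM in WT CL and 0.046, 0.05 and 0 FPKM in WT UUO libraries, and at 0.494, 0.635 and 0.652 FPKM in Acot12-/- CL and 0, 0 and 0.101 FPKM in Acot12-/- UUO libraries. These values stand for about 4, 4 and 7 fragments in WT CL and 1, 1 and 0 in WT UUO libraries. In Acot12-/- mice they stand for 7, 9 and 10 fragments in CL and 0, 0 and 2 in UUO libraries. The divisor of the FPKM values was larger in the UUO libraries, which need not mean a greater depth. Il17f fell by 0.43 ± 0.09 in WT and 0.62 ± 0.09 in Acot12-/- (adjusted p 0.00245 and 0.000142) and was called under every scaling. T cell markers rose in the same kidneys. Il17a and Il17b were listed at 0 in every library.

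Il34, Il4i1 and Il16 belong to none of these families, and all 3 rose in both genotypes. Il34 is a second ligand of the macrophage receptor Csf1r and is made by tubular epithelium, and it lies at chr8:110741829-110805924. Il34 was listed at 16.8, 26.1 and 15.1 FPKM in WT CL and 66.1, 84.4 and 62.3 FPKM in WT UUO libraries, and at 10.3, 3.83 and 29.1 FPKM in Acot12-/- CL and 54.9, 66.9 and 77.5 FPKM in Acot12-/- UUO libraries. It reached the highest FPKM of the 47 genes in the UUO kidneys of both genotypes, and the difference was 1.85 ± 0.49 in WT and 2.50 ± 0.49 in Acot12-/- (adjusted p 0.00868 and 0.00104), or 1.86 in Acot12-/- without replicate 2 of CL. Its large standard error came with the 3.83 to 29.1 FPKM of the Acot12-/- CL libraries. Il4i1 encodes an oxidase of phenylalanine and tryptophan secreted by myeloid cells. Il4i1 was listed at 0.247, 0.213 and 0.472 FPKM in WT CL and 4.02, 3.39 and 7.21 FPKM in WT UUO libraries, and at 0, 0.303 and 0.407 FPKM in Acot12-/- CL and 4.4, 2.42 and 3.81 FPKM in Acot12-/- UUO libraries. It rose by 2.11 ± 0.24 and 1.87 ± 0.24 (adjusted p 4.22e-05 and 5.33e-05), and part of its annotated span is shared with Nup62 on the same strand. Il16 encodes a chemoattractant precursor of lymphocytes. Il16 was listed at 0.91, 1.07 and 0.878 FPKM in WT CL and 2.71, 2.26 and 2.8 FPKM in WT UUO libraries, and at 0.281, 0.59 and 0.542 FPKM in Acot12-/- CL and 2.6, 2.64 and 2.51 FPKM in Acot12-/- UUO libraries. It rose by 0.88 ± 0.12 and 1.29 ± 0.12 (adjusted p 0.000118 and 5.47e-06).

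Other genes of the same pathways came from lists written for this purpose, and their counts stand beside the 23.7% of all tested genes called higher in WT and the 27.7% in Acot12-/-. Of 20 tested ligand and receptor genes of these families with other names, 12 rose and 3 fell in WT and 14 rose and 1 fell in Acot12-/- kidneys. Clcf1, a cytokine of the gp130 family, rose by 2.72 in WT and by 3.25 in Acot12-/-, and Crlf2, the receptor of TSLP, and Csf1, the other ligand of Csf1r, by 1.71 and 1.98 in WT and by 2.53 and 2.31 in Acot12-/-. Of 25 JAK, STAT and SOCS genes 8 rose in each genotype, a share near that of all genes, 1 fell in WT and 2 fell in Acot12-/-. Among the 8, Socs3, the feedback inhibitor of gp130, had differences of 2.94 and 3.14, and Jak3, the kinase of the common gamma chain, 1.14 and 1.49. Of 26 adaptor and NF-kB genes 14 rose and 2 fell in WT and 13 rose and 3 fell in Acot12-/-, with Relb at 2.46 and 2.73, Nfkb2 at 2.71 and 2.39 and the IkB proteins Nfkbie at 2.19 and 2.36 and Nfkbiz at 2.19 and 2.22. Of 9 genes that process IL-1 family precursors 6 rose in WT and 7 in Acot12-/-, among them Casp4 (1.87 and 2.91), the pore-forming Gsdmd (1.58 and 2.52) and Casp1 (0.90 and 1.19), and none fell.

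Between the genotypes, no interleukin or receptor gene was called in UUO kidneys, as were 0% of all tested genes. Of the 47, 5 had an unadjusted limma p under 0.05, as had 450 of all 14963 tested genes. Those 5 were Il18bp, Il1b, Il1rl1, Il2rb and Il6. Il33 was at 11.5 to 12.9 FPKM in WT and 14.0 to 18.1 FPKM in Acot12-/- UUO kidneys, and the difference of 0.33 ± 0.21 was not called (adjusted p 1). Its UUO values did not overlap, nor did those of Il18bp and Il1rap, also higher in Acot12-/-. The same held for Il12rb2, Il17ra, Il1rl1, Il27ra and Il2rb, which were lower. The share of all genes without overlap was not counted. Within the Acot12-/- UUO group, replicate 2 held the highest values of Il1b, Il6, Il11 and Il1f9. Summed T cell and NK cell markers were 43.2 to 45.3 FPKM in WT UUO and 20.2 to 31.9 FPKM in Acot12-/- UUO libraries, with no marker of the list called.

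In CL kidneys, 2 of the 47 genes differed between genotypes, 1 lower and 1 higher in Acot12-/-, against 3.08% of all tested genes called lower and 0.976% called higher. Il33 was lower by -1.10 ± 0.21 (adjusted p 0.0153), at 1.13 to 3.13 FPKM in Acot12-/- and 4.83 to 6.11 FPKM in WT CL libraries. Il10rb was higher by 0.63 ± 0.14 (adjusted p 0.0297), at 36.0 to 47.6 FPKM in Acot12-/- and 23.5 to 28.2 FPKM in WT CL libraries. In neither gene did the libraries overlap, nor did they in Il10ra, Il12rb1, Il16, Il17d, Il18rap, Il1r2, Il21r, Il27ra, Il2rb and Il2rg. The share of all genes without overlap was not counted. An unadjusted limma p under 0.05 was reached by 12 of the 47 genes and by 2545 of all 14963 tested genes. Il33 lost its call in a fit of the compared groups alone (adjusted p 0.139) and without WT CL replicate 2 or 3 (adjusted p 0.0587 and 0.0546). The fit of the compared groups called 1 of all 14963 tested genes in CL kidneys, beside 607 in the main fit. Without WT CL replicate 2 or 3 it was 279 of 14909 and 269 of 14916. Over all alternatives the difference of Il33 ran from -1.42 to -0.84. Il10rb lost its call in 8 of 21 alternative fits, with differences from 0.51 to 0.71.

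The number of genes called in CL kidneys rested on the processing and on a single library. With a pseudocount of 0.1, 8 of the 47 were called, 7 lower (Il10ra, Il16, Il17d, Il18rap, Il27ra, Il2rb and Il33) against 4.3% of all tested genes and 1 higher against 1.01%. Without replicate 2 of Acot12-/- CL, 8 were called as well, 6 lower (Il10ra, Il16, Il18, Il27ra, Il33 and Il6ra) against 9.49% and 2 higher (Il10rb and Il17rc) against 9.87%. Without replicate 3 of that group Il34 (-1.43, adjusted p 0.0375) and Il3ra (-1.19, adjusted p 0.00605) were called lower as well. Under that setting 503 of 14938 tested genes were called lower. Il10ra illustrates the pattern, with 1.21 to 1.76 FPKM in WT CL and 0.620 to 0.885 FPKM in Acot12-/- CL libraries, and a difference of -0.53 ± 0.15 (adjusted p 0.0715). Leukocyte, vascular and fibroblast markers moved with it. Of the tested markers, 6 of 10 of T cells and NK cells, 4 of 14 of macrophages and dendritic cells, 6 of 8 of endothelium and 2 of 10 of fibroblasts were called lower in Acot12-/- CL, and summed T cell and NK cell markers were 11.4 to 17.8 FPKM in WT CL and 3.11 to 5.22 FPKM in Acot12-/- CL, with no marker at 0 across either group. Summed endothelial markers were 123 to 201 FPKM and 45.2 to 68.3 FPKM, those of fibroblasts 142 to 182 FPKM and 48.0 to 113 FPKM, and those of macrophages 163 to 176 FPKM and 42.0 to 111 FPKM. Their part in the CL difference of Il33, of Il10ra or of the other genes was not tested.

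**Figure D5:**
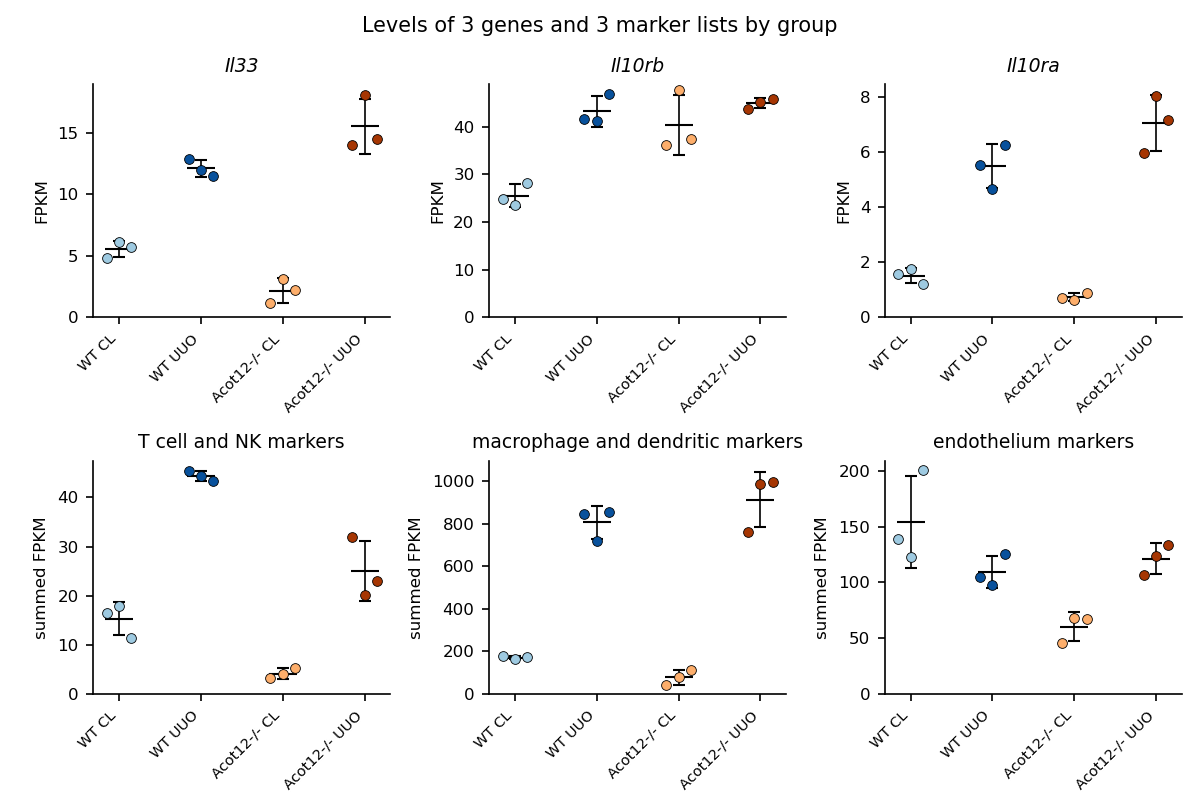
Points are FPKM of Il33, Il10rb and Il10ra and summed FPKM of the T cell and NK, macrophage and dendritic, and endothelium marker lists in single libraries of the 4 groups, with the mean and SD of 3 libraries. Il33, Il10ra and all 3 marker sums are lower in every Acot12-/- CL than in every WT CL library, and Il10rb is higher.

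The interaction asked whether the difference between UUO and CL kidneys was itself different in Acot12-/- mice. None of the 47 genes was called, beside 0.0535% of all tested genes. Of the 47, 9 had an unadjusted limma p under 0.05, as had 1572 of all 14963 tested genes. Il33 was the nearest, with an interaction of 1.42 ± 0.30 (adjusted p 0.0893), and with the mouse as a block it was called (1.42, adjusted p 0.032), as were 0.869% of all genes. Without replicate 2 of Acot12-/- CL, Il33 (1.64, adjusted p 0.0118), Il18 and Il18bp were called, each with a larger rise in Acot12-/-, against 5.46% of all genes. Without replicate 3 of that group only Il3ra was, beside 140 of 14938 tested genes. The interaction of Il33 was made of a lower CL level, 2.17 ± 1.00 FPKM beside 5.55 ± 0.65 FPKM in WT (mean ± SD, n = 3), and a UUO level of 15.6 ± 2.23 FPKM beside 12.1 ± 0.69 FPKM, of which only the first difference was called. Endothelial and fibroblast markers moved the same way: their median interaction was 1.12 and 0.87, with 0 of 8 and 0 of 10 called. They were not alone in this. The median was 1.86 for the 4 tested neutrophil markers, 0.62 for distal tubule and collecting duct, and 0.55 for macrophages and dendritic cells. It was 0.37 for B cells, 0.18 for T cells and NK cells, 0.03 for mast cells and basophils, and -0.58 for proximal tubule. With UUO, 4 of 8 endothelial markers fell and 1 rose in WT while 5 rose in Acot12-/-, and 7 and 10 of 10 fibroblast markers rose in WT and Acot12-/-. The part of these markers in the interaction of Il33 or Il3ra was not tested. Il10ra (0.84 ± 0.21, adjusted p 0.134) and Il3ra (1.17 ± 0.40, adjusted p 0.279) came next in size among the receptor genes, and neither passed the test.

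Of the 36 symbols outside the threshold, 12 were listed at 0 in every library, among them Il3, Il9, Il17a, Il20, Il22 and Il25, and the others reached at most 0.528 FPKM, the value of Il1a in Acot12-/- UUO replicate 2. Il4 at 0.466 FPKM and Il10 at 0.455 FPKM were highest in that library too, and Il2 at 0.431 FPKM in WT UUO replicate 1. At the depth of these libraries such values stand for few fragments, so that these cytokines were not detectable or barely so, which does not show that they were absent.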

How the data were processed

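RNA of kidney cortex was sequenced in 12 libraries (directional NEBNext Ultra II kit, NovaSeq), and a sequencing company processed the reads for the authors. The deposited values are FPKM per gene symbol. The unit was derived from the steps of low values, which also gave the divisor of each library. The submitters' processing notes name mm10 and edgeR without a role; aligner and counter are not given in the sources used here. Genes and lists were chosen with earlier results of these data known.

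The fit used limma 3.58.1 in R 4.3.3 on log2(FPKM + 1), 1 model over the 4 groups, a variance trend and Benjamini-Hochberg adjustment over 14963 genes with at least 0.3 FPKM in at least 3 libraries. Of 58 genes left out because they are listed at 0 beside at least 10 FPKM in their group, none was a member. Such fold changes understate low genes. Counts are not given, so counting error enters through replicate spread. The labels do not say that replicates are separate mice, and the methods speak of independent experiments only for the study in general, so p-values measure the spread between these samples, which may in part be technical. Same-numbered CL and UUO residuals correlated at 0.135 to 0.344 in WT and 0.184 to 0.31 in Acot12-/- (different numbers at most 0.118 and -0.0754), so the numbers were taken to pair kidneys within a genotype. The main fit did not use this pairing and treated the kidneys as independent. Pairing entered only in the alternative with the mouse as a block. That alternative called 130 of 14963 genes for the interaction, beside 8 in the main fit.

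Library values are given for the 30 called members with the largest absolute difference with UUO in either genotype and for Il1b, Il6, Il10, Il18, Il33, Il34 and Il1rn; exceptions are stated. Positions are from GENCODE vM21 (GRCm38), promoters from RefSeq. Alternatives changed the pseudocount, low-value filter, scaling, trend, groups fitted, mouse block and zero rule, or left out 1 library. The fit was tested on simulated data.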

Additional observations from a re-analysis of the deposited data

How the results depend on the processing

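Of 70 calls of single genes, 60 held under every alternative that gave a value (low genes have none with the filter at 1 FPKM). Between the CL kidneys of the 2 genotypes, 2 of the 47 genes were called, and 8 with a pseudocount of 0.1, 1 with equal total FPKM, 0 in a fit of the compared groups alone, and 0 to 8 when 1 library was left out. Over all tested genes these CL fits called 607, 795, 288, 1 and 184 to 2887, in the same order. For the interaction 0 of the 47 were called, 1 with the mouse as a replicate block (Il33), and 0 to 3 when 1 library was left out. Over all tested genes the interaction counts were 8, 130 and 0 to 814. The block also called Il5ra with UUO in Acot12-/- kidneys and changed no other call. With equal total FPKM the UUO difference of Il13ra1 turned to 0.59 in WT and 0.32 in Acot12-/-, that of Il15ra to 0.28 in WT and that of Il11ra1 to 0.062 in Acot12-/-, and the CL genotype difference of Il17rc, -0.11 over all libraries, ran from -0.56 to 0.57 when 1 library was left out, the latter without Acot12-/- CL replicate 2. With UUO, 30 to 34 genes were called in WT and 35 to 41 in Acot12-/- when 1 library was left out, and 39 in each with equal totals. Of all tested genes, 5212 to 8744 were called in WT and 6340 to 9075 in Acot12-/- when 1 library was left out. Under equal totals it was 9456 in WT and 8623 in Acot12-/- of 15117 tested genes. Equal totals also moved the median genotype difference of all tested genes from 0.0012 to -0.139 in UUO kidneys and the median interaction from 0.0020 to -0.145. Between genotypes in UUO kidneys 0 were called under each alternative.

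Depth limits the genes under 1 FPKM, of which 9 drop out when at least 1 FPKM in 3 libraries is required. Kap, a proximal tubule gene, was listed at 0 in 3 CL libraries and made up 11.9% to 19.4% of the total FPKM in the other 3, which bears on the scaling to equal totals. With 3 libraries a group, an uncalled gene is not shown to be equal between groups.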

Other observations

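Acot12-/- UUO replicate 2 held the highest value of the 12 libraries for 12 of the 47 genes, Il10ra, Il11, Il17rc, Il17rd, Il18r1, Il18rap, Il1b, Il1f6, Il1f9, Il33, Il3ra and Il6. Without it, the differences with UUO in Acot12-/- kidneys were 1.57 for Il1b, 0.81 for Il6, 1.07 for Il11 and 0.48 for Il1f9 on the log2(FPKM + 1) scale (limma adjusted p 0.00238, 0.000878, 0.000151 and 0.0329), and all 4 calls held.

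The highest FPKM of a gene was at least 10 in 15 of the 47 genes, from 1 to 10 in 27 and under 1 in 5. In the UUO libraries Il1f6 at 12.4 to 30.1 FPKM stood beside its receptor gene Il1rl2 at 0.357 to 0.712 FPKM.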
